A study of Mus musculus with 10 samples.

Results

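The receptor of luteinising hormone and the cyclic AMP (cAMP) kinase pathway below it were followed through 10 genes, picked by symbol: Lhcgr, Gnas, Prkaca, Prkar1a, Prkar2a, Prkar2b, Creb1, Crem, Pde4b and Pde4d. All 10 were among the 25239 symbols of the deposited count table. Expression was measured by RNA sequencing in 4 groups: the MLTC-1 line, grown from a mouse Leydig tumour, with hymeglusin (n = 3), which blocks cytosolic HMG-CoA synthase, or with its solvent control DMSO (n = 3), and untreated primary Leydig cells of 24-month-old (n = 2) or 2-month-old (n = 2) mice. The labels used here give neither strain, genotype, dose nor duration, nor how the primary cells were isolated. Since nothing there ties a replicate to its own culture or animal, each p-value covers only how these samples vary, and that variation may be technical.

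Leydig cells lie between the seminiferous tubules and make testosterone when luteinising hormone from the pituitary binds its receptor, Lhcgr. The receptor activates the stimulatory G protein, whose alpha subunit is encoded by Gnas, and this turns on adenylyl cyclases that make cAMP. Binding of cAMP to the regulatory subunits of protein kinase A (PKA), encoded by Prkar1a, Prkar2a and Prkar2b, frees the catalytic subunits, of which Prkaca encodes the main one. The freed kinase phosphorylates the transcription factors Creb1 and Crem, which bind the cAMP response element (CRE) in promoters, and the phosphodiesterases Pde4b and Pde4d end the signal by breaking cAMP down.

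Total counts were 27490870 to 33951121 in the hymeglusin libraries, 24370094 to 34787330 in the DMSO libraries, 17407456 and 23714601 for cells of 24-month mice, and 23668785 and 24234367 for those of 2-month mice. The Leydig cell genes Star, Cyp11a1, Cyp17a1, Hsd3b1, Insl3 and Nr5a1 were all detected in every group and summed to 6348 CPM or more (counts scaled to library size as CPM, with 1 scaling over all 10 libraries) in each library. Of these 6, 4 fell and 0 rose with hymeglusin, where 24.5% of all tested genes fell and 23.8% rose. With age 0 fell and 1 rose (0 and 0 after correction for transcript length), where 15.1% of all tested genes fell and 13.5% rose. The primary cells also held spermatid transcripts. Summed over 10 spermatid markers, levels were 10971 and 5900.4 CPM at 24 months against 1910 and 2624 CPM at 2 months, and at most 1.23 CPM in MLTC-1 libraries, where 4 of the 10 were at 0 in all hymeglusin libraries and 6 in all DMSO libraries. Of these markers, 9 of 10 rose at 24 months (edgeR), and 2 of 10 did so after correction for transcript length. Of all tested genes, 13.5% and 8.97% did so. Summed over 10 macrophage markers, levels were 55.0 and 46.3 CPM at 24 months against 13.3 and 15.7 CPM at 2 months. In MLTC-1 cells they were 2.80 to 3.59 CPM with hymeglusin and 0.524 to 1.10 CPM with DMSO, which did not overlap. There 1 of the 10 was at 0 in all hymeglusin libraries and 7 in all DMSO libraries. With hymeglusin, 1 of 2 tested macrophage, 2 of 2 endothelial, 2 of 3 peritubular myoid and 2 of 4 other germ cell markers rose. Of these lists 0 markers fell, and of 3 Sertoli cell markers 1 fell and 0 rose. The 1 spermatid marker tested did neither. In whole preparations, fewer cells of a type and less RNA per cell cannot be told apart.

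Levels were put on the scale of CPM per kilobase of all annotated exons, with 1 scaling over all 10 libraries. On it the pathway was headed by Prkar1a, Prkaca and Gnas and, in cells of young mice, Lhcgr. This order rests on the length used. The exons of Gnas come to 11186 bases and its longest transcript to 3947, against 4321 and 3513 for Prkar1a and 2488 and 2276 for Prkaca. By CPM with no length, Gnas was highest in every group, averaging 1130.5 with DMSO against 602 for Prkar1a and 343 for Prkaca. Lhcgr lay at 39.7 to 41.6 in the hymeglusin libraries, 68.9 to 72.9 in the DMSO libraries, 26.5 and 35.6 at 24 months, and 98.8 with 84.96 at 2 months. The 4 groups did not overlap, with cells of 2-month mice highest and those of 24-month mice lowest. This scale carries no offset for transcript length, which is explained for the age comparison. With that offset the log2 fold change of Lhcgr with age was -0.28 (edgeR, adjusted p = 0.567). Prkar1a, the most abundant regulatory subunit, spanned a narrower range, 100.6 to 137 over all libraries. It was lowest at 24 months, and the DMSO and 2-month libraries overlapped. Gnas was at 88.7 to 101 with hymeglusin and 94.9 to 99.0 with DMSO, which overlapped on this scale, and at 142 and 121 in 24-month against 116 and 103 in 2-month libraries. Prkaca ran higher in the line, at 111 to 135, than in the primary cells of both ages, at 64.8 to 90.8, where the ages overlapped.

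**Figure D1:**
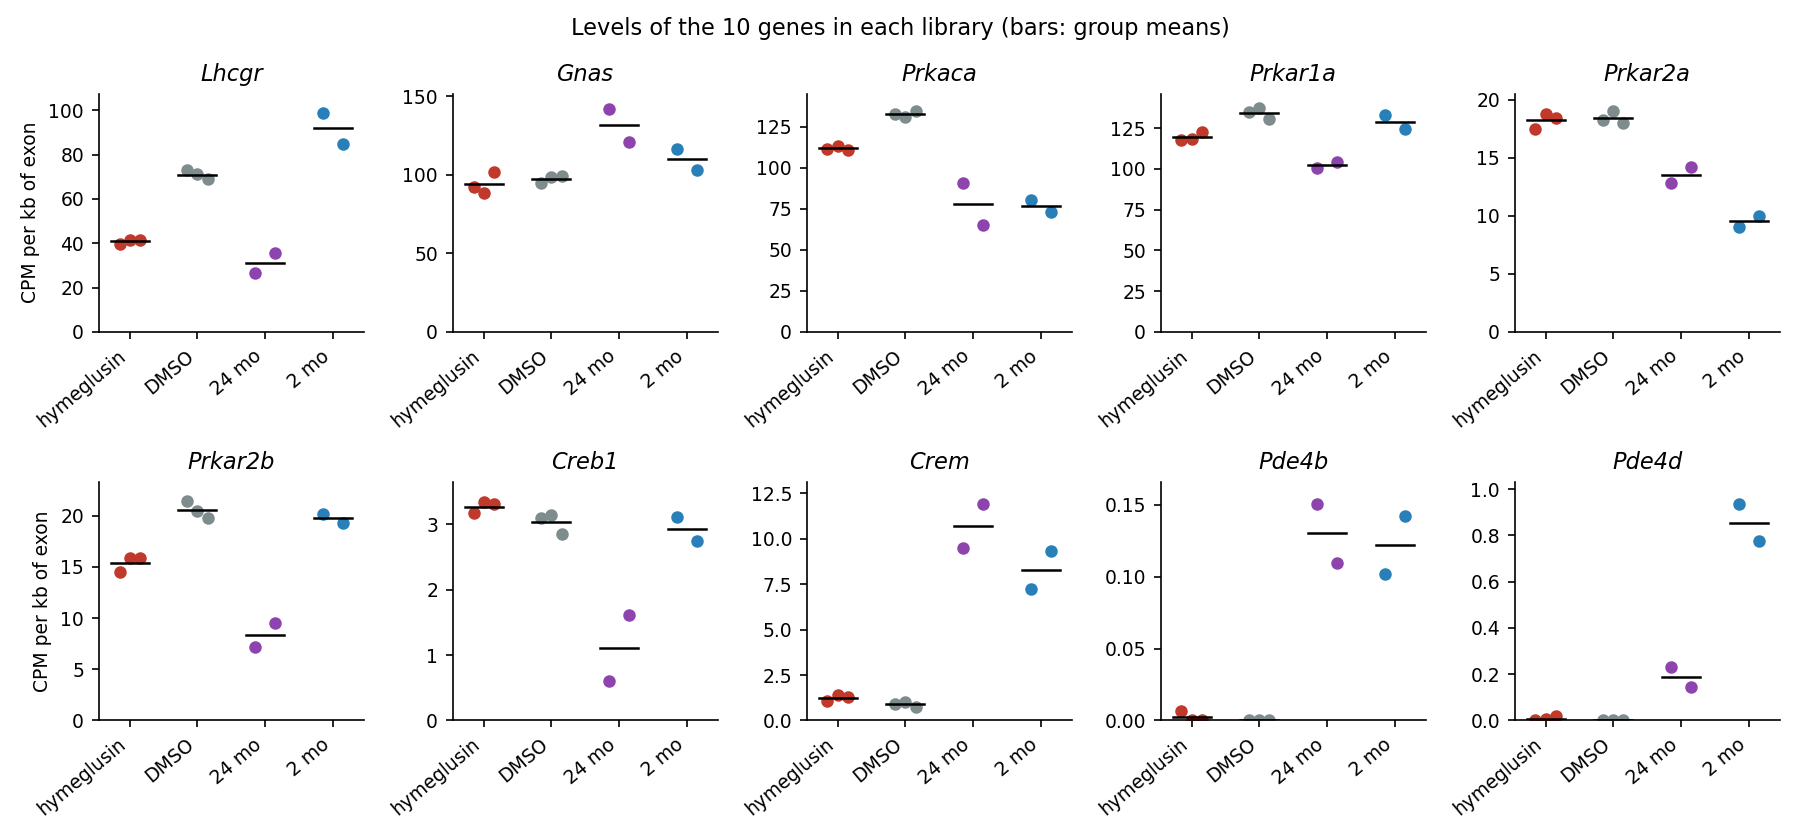
Each panel shows 1 gene, with the level in CPM per kilobase of exon (1 scaling over all 10 libraries, axis from 0) of each library as a point and the group mean as a bar, for hymeglusin, DMSO, 24 months and 2 months. Lhcgr falls into 4 separate groups, Crem is several times higher in both primary groups than in MLTC-1 cells, and Pde4b and Pde4d are at or near 0 in MLTC-1 cells. These levels carry no offset for transcript length.

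Crem, whose activator forms are known to be abundant in round spermatids, stood at 9.50 and 11.9 CPM per kilobase at 24 months and 7.26 and 9.34 at 2 months, against 1.08 to 1.39 with hymeglusin and 0.755 to 1.01 with DMSO. The spermatid markers given above were likewise high in the primary cells alone among these groups, and their part in the level of Crem was not tested. Creb1 was at 2.75 to 3.34 in every library except those of 24 months, at 0.598 and 1.61. Pde4d, a phosphodiesterase that is part of cAMP feedback in many cells, had 42 and 42 counts at 24 months and 271 and 235 counts at 2 months. In MLTC-1 cells Pde4d had 0, 2 and 8 counts with hymeglusin and 0 counts in each DMSO library. Pde4b had 24 and 28 counts at 24 months and 26 and 38 counts at 2 months, against 2, 0 and 0 counts with hymeglusin and 0 counts in each DMSO library. A count of 0 over the 84716875 counts of the DMSO libraries allows up to 3 counts, or 0.0354 CPM, by counting error only. The line was not tested against the primary cells.

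Promoter sequences are printed for Lhcgr and Prkar2b, with GC boxes marked, and for Prkar1a, with its CRE marked. Those of the other members, Pde4d and Prkar2a among them, are not printed. RefSeq promoter windows on GRCm38.p6, each from 250 bases before to 50 after a start, were matched for 9 of the 10 members, with 22 windows in all, and Crem was not searched. They were searched on both strands for the CRE (TGACGTCA), for its core site (TGACG), which the full element contains, and for the GC box (GGGCGG). Lhcgr and Prkar2b were called lower in both comparisons as fitted, and the window of Lhcgr and the upstream one of the 2 windows of Prkar2b each held 4 GC boxes and no CRE or core site. Neither trait sets them apart, since 6 of the 9 members and 10 of the 22 windows held a GC box, a Prkar1a window also held 4, and Creb1 held 2 with no CRE or core site. Of the 9 members searched, Prkar1a alone had a full CRE, found in 2 overlapping windows of its 6. A core site was found in 5 of the 9 members and 9 of the 22 windows. Of all 32851 windows, 35.7% held a GC box, 20.8% a CRE core site and 1.79% a full CRE. Capitals mark the GC boxes in the first pair and the CRE in the third sequence, each written 5′ to 3′ on the strand of the gene.
Lhcgr, minus strand, chr17:88791965-88792264: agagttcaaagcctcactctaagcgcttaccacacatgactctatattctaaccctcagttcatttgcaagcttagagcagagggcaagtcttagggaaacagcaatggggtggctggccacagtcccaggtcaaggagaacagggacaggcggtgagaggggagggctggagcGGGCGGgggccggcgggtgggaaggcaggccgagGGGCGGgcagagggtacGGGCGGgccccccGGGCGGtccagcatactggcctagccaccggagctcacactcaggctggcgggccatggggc
Prkar2b, minus strand, chr12:32061228-32061527: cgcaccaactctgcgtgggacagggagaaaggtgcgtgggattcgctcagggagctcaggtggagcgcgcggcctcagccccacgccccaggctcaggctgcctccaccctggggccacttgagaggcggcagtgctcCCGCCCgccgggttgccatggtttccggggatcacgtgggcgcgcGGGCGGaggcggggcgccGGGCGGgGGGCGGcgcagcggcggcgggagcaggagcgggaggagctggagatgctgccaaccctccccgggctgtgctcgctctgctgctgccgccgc
Prkar1a, plus strand, chr11:109650699-109650998: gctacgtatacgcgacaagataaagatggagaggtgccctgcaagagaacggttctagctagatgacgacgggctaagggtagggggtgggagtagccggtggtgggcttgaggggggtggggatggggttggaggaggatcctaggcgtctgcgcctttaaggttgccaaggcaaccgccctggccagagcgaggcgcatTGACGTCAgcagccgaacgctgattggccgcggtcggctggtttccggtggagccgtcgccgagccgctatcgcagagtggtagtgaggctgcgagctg
A match is a description of these letters and not a site of binding.

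The first comparison asked how hymeglusin changed the pathway in MLTC-1 cells. Genes were compared by edgeR's quasi-likelihood test with Benjamini-Hochberg adjustment over all tested genes and a threshold of 0.05, and per-library levels from here on are CPM scaled within the comparison. The hormone receptor Lhcgr, the PKA subunit genes Prkar2b, Prkaca and Prkar1a and, by a small margin, the G protein gene Gnas fell, and Crem rose. Of the 8 members with enough counts to be tested, 5 fell and 1 rose, where 24.5% of all 12873 tested genes fell and 23.8% rose. The median log2 fold change was -0.18 over the 8 members and 0.01 over all tested genes. Library values lay lower without overlap for 6 members and higher for 1, against 27.3% and 27.7% of all tested genes. With an offset for transcript length, explained for the age comparison, 6 members fell and 1 rose, against 25.3% and 24.0% of all tested genes.

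Lhcgr (chromosome 17, 88716481 to 88791990, minus strand), the receptor at the head of the pathway, had 302, 316 and 307 CPM with hymeglusin, against 581, 557 and 549 CPM with DMSO. Every treated library lay far below every control library. Lhcgr averaged 309 ± 6.98 CPM with hymeglusin and 562 ± 16.8 CPM with DMSO (SD, n = 3 each). On the log2 scale the fold change was -0.87 (SE 0.0458, adjusted p = 2.21e-17). The level fell by 45.1%. The call held in all 16 alternative analyses (adjusted p at most 0.0069). Gnas, the G protein subunit that the receptor activates, had 1026, 986 and 1099.8 CPM with hymeglusin, against 1107, 1129 and 1156 CPM with DMSO. The groups lay close together without overlap. Its fold change was -0.12 (SE 0.0460, adjusted p = 0.0249), so that the level fell by 8.25%, and the call was lost in 7 of 16 alternatives, among them total-count scaling (adjusted p = 0.745) and leaving out DMSO replicate 2 (0.0741) or 3 (0.0875) or hymeglusin replicate 1 (0.102) or 2 (0.138).

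Among the kinase subunits, Prkar2b (chromosome 12, 31958476 to 32061296, minus strand), the type II beta regulatory subunit, had 52.9, 57.5 and 56.0 CPM with hymeglusin, against 81.8, 76.3 and 75.3 CPM with DMSO. The highest treated library stood well below the lowest control. Its log2 fold change was -0.49 (SE 0.0579, adjusted p = 9.49e-09), and the level fell by 28.7%. Prkaca, the catalytic subunit, averaged 274 ± 5.95 CPM with hymeglusin and 343 ± 8.58 CPM with DMSO (SD, n = 3 each), with library values of 276, 279 and 268 CPM with hymeglusin against 345, 333 and 350.0 CPM with DMSO. It fell by 0.32 on the log2 scale (SE 0.0459, adjusted p = 3.88e-07). Prkar1a, the type I alpha regulatory subunit, had 506, 507 and 514 CPM with hymeglusin, against 609, 607 and 589 CPM with DMSO, and fell by 0.24 on the log2 scale (SE 0.0442, adjusted p = 2.46e-05). Neither gene's groups overlapped. Prkar2a, the type II alpha regulatory subunit, had 111, 119 and 114 CPM with hymeglusin, against 121, 124 and 119.95 CPM with DMSO. The difference of -0.09 (SE 0.0503, adjusted p = 0.154) did not pass. It passed, at -0.11 (adjusted p = 0.0460), with the length offset, and it was 0.018 with total counts.

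Crem had 6.36, 8.16 and 7.49 CPM with hymeglusin, against 5.48, 6.07 and 4.64 CPM with DMSO, from 114 to 262 counts a library. The groups did not overlap but lay near each other, and Crem rose by 0.44 on the log2 scale (SE 0.141, adjusted p = 0.0104). Without DMSO replicate 3 or hymeglusin replicate 2 its adjusted p was 0.0599 and 0.0640. Crem is known to give rise to activators and, from an internal promoter, to the cAMP-induced repressor ICER, and counts per gene do not tell these products apart. Exons of Crem also share 472 bases with Gm6225 on the opposite strand. Creb1, the other transcription factor among the members, had 43.3, 45.6 and 44.1 CPM with hymeglusin, against 44.3, 44.2 and 40.9 CPM with DMSO. Its groups overlapped, and the fold change was 0.04 (SE 0.0630, adjusted p = 0.650). Pde4b and Pde4d had too few counts for the test. Set against the limit of 3 counts over the DMSO libraries, the 10 counts of Pde4d over the hymeglusin libraries make it at least 3.13-fold higher, without the counting error of the 10. Of these counts 8 came from hymeglusin replicate 3, and the 2 left without it are under the limit, so that no fold can then be given. Its adjusted p was 0.0724 with no count filter. In all, 2246 genes had 0 counts in every DMSO library and some with hymeglusin, against 555 genes the other way round.

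**Figure D2:**
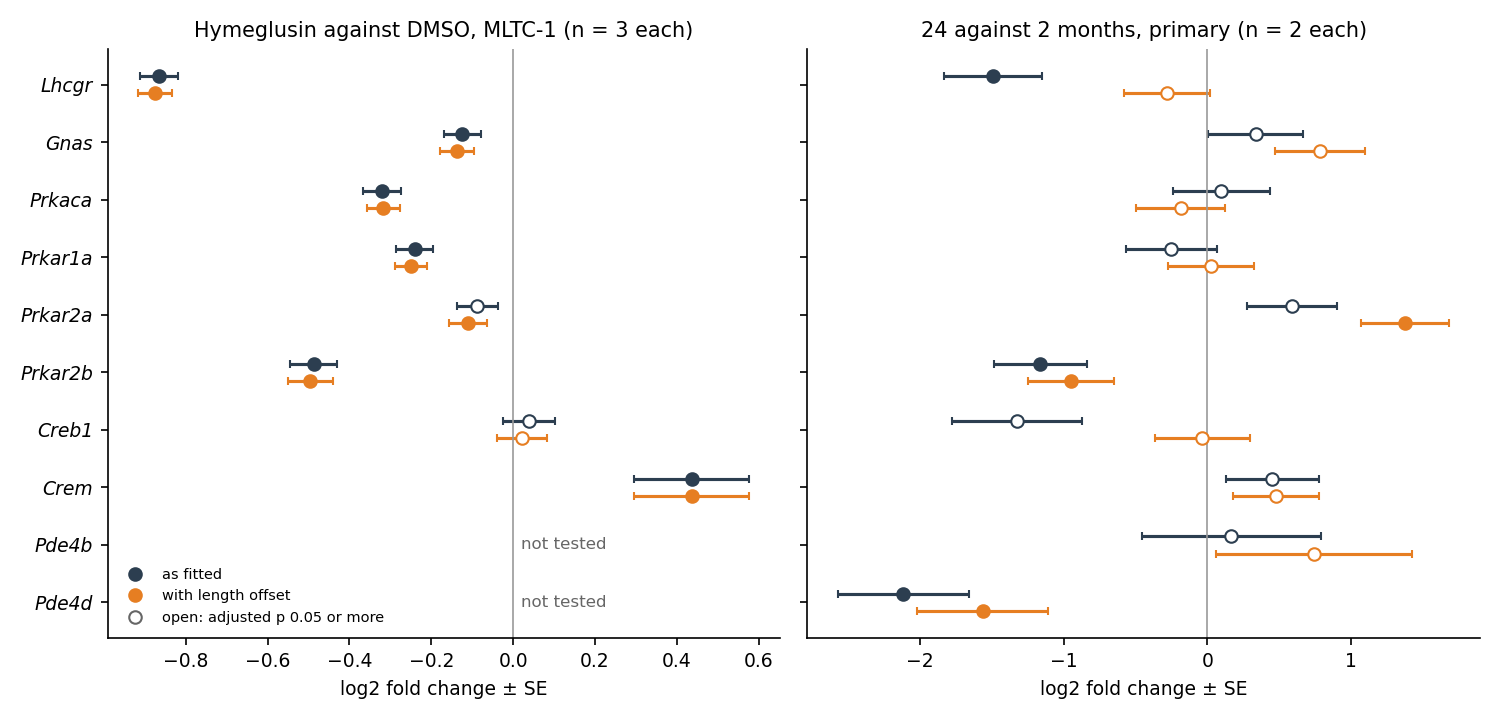
Log2 fold changes ± SE of the 10 genes, for hymeglusin against DMSO on the left and for 24 against 2 months on the right, as fitted and with an offset for transcript length. Filled points have an adjusted p under 0.05. With hymeglusin both versions nearly coincide, while with age Lhcgr moves from -1.49 to -0.28, Creb1 from -1.33 to -0.03 and Prkar2a from 0.59 to 1.38, and Prkar2b and Pde4d stay below 0.

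The second comparison asked how the pathway differed in Leydig cells of old mice. As fitted, Lhcgr, Prkar2b and Pde4d were lower at 24 months, and no member was called higher. Of 10 tested members 3 fell, where 15.1% of all 16381 tested genes fell and 13.5% rose. The count of 0 members higher was also 0 at an unadjusted p under 0.05, by DESeq2 and by limma-voom. The median log2 fold change was -0.08 over the members and -0.01 over all tested genes. Library values lay lower without overlap for 5 members and higher for 3, against 37.9% and 35.9% of all tested genes. Fold changes with age followed transcript length throughout the transcriptome: when genes were cut into 10 equal bins by length, 54.6% of the bin with the longest transcripts were called lower and 50.8% of the bin with the shortest were called higher, with medians of -1.41 and 1.41. The 24-month libraries also differed from each other along length, replicate 1 minus replicate 2 having a median log2 difference of -0.64 among the longest transcripts and 0.68 among the shortest, against 0.00 and -0.10 in the 2-month pair. Each member is therefore also given with an offset that removes a smooth trend on transcript length from every library. With it, 2 members fell and 1 rose, against 5.65% and 8.97% of all tested genes.

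Lhcgr had 207 and 273 CPM at 24 months, against 746 and 603 CPM at 2 months. Both old libraries lay far below both young ones. It averaged 239.8 ± 46.3 CPM at 24 months and 675 ± 101 CPM at 2 months (SD, n = 2 each). On the log2 scale the fold change was -1.49 (SE 0.342, adjusted p = 0.0163). Its longest transcript has 6828 bases, which puts it in the bin of the longest, and 47.5% of the genes of that bin had a more negative fold change. With the length offset the fold change was -0.28 (SE 0.303, adjusted p = 0.567), so the call of a fall in the receptor ended there. It also ended without 2-month replicate 1 (adjusted p = 0.236) or 2 (0.101). Creb1, with a transcript of 8364 bases, had 8.40 and 22.2 CPM at 24 months, against 42.2 and 35.1 CPM at 2 months. Its old libraries were both low but far apart from each other. The fold change of -1.33 (SE 0.454, adjusted p = 0.0536) did not pass. It passed in 8 of 14 alternatives. Leaving out 24-month replicate 1 gave -0.84 (adjusted p = 0.00655) and leaving out replicate 2 gave -2.26 (3.38e-05), while without 2-month replicate 1 or 2 the adjusted p was 0.275 and 0.127. With the length offset the fold change was -0.03 (SE 0.329, adjusted p = 0.958).

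Prkar2b fell as fitted and with the length offset. It had 26.9 and 34.8 CPM at 24 months, against 72.8 and 65.5 CPM at 2 months, so that both old libraries were near the same low level. The log2 fold change was -1.16 (SE 0.324, adjusted p = 0.0283), and -0.95 (SE 0.3003, adjusted p = 0.0440) with the length offset. Its longest transcript has 3378 bases, and 11.0% of genes in that length bin had a more negative fold change. Without 2-month replicate 1 or 2 its adjusted p was 0.307 and 0.194, and with a replicate block beside the offset it was 0.0512. Prkar2a (chromosome 9, 108689314 to 108750436, plus strand) differed the other way, with 83.8 and 91.1 CPM at 24 months, against 57.0 and 59.2 CPM at 2 months. The ages did not overlap, and the fold change was 0.59 (SE 0.312, adjusted p = 0.174), not past the threshold. Prkar2a has a longer transcript than Prkar2b, 4965 bases, and 89.8% of genes in its length bin had a lower fold change. With the length offset its fold change was 1.38 (SE 0.306, adjusted p = 0.00764). As fitted, it passed without 24-month replicate 1 (0.0184) or 2 (0.0414) and did not without 2-month replicate 1 (0.695) or 2 (0.624).

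Pde4d (chromosome 13, 108449948 to 109953461, plus strand) showed the most negative fold change of the 10 members. It had 2.85 and 1.74 CPM at 24 months, against 11.1 and 8.65 CPM at 2 months. Each old library was well under each young one, from 42 to 271 counts. The log2 fold change was -2.12 (SE 0.456, adjusted p = 0.0137), and -1.57 (SE 0.456, adjusted p = 0.0310) with the length offset. Without 2-month replicate 1 the adjusted p was 0.121. Pde4b, a close relative in the same phosphodiesterase family, had 1.63 and 1.16 CPM at 24 months, against 1.06 and 1.40 CPM at 2 months. These overlapped, and the fold change of 0.17 (SE 0.623, adjusted p = 0.858) rests on 24 to 38 counts a library. Of the genes in its length bin, 80.3% had a lower fold change, and the length offset put it at 0.74 (adjusted p = 0.493).

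The other members were called neither as fitted nor with the length offset. Gnas (chromosome 2, 174284320 to 174346744, plus strand) had 1623 and 1357 CPM at 24 months, against 1286 and 1073 CPM at 2 months, a fold change of 0.34 (SE 0.332, adjusted p = 0.457). The lower of the old libraries lay near the higher of the young ones, and 77.7% of genes in its length bin had a lower fold change. Gnas was at 0.78 (adjusted p = 0.103) with the length offset, and it passed in 1 fit of all 10 libraries (0.39, adjusted p = 0.0302) and with the replicate block and offset (0.77, adjusted p = 0.0362). Gnas shares exon bases with Gm20721 and the antisense RNA Nespas on the opposite strand, whose reads cannot be told apart from it here since the strand setting of the counting is not given in the sources used. Prkaca had 231 and 162 CPM at 24 months, against 198 and 169 CPM at 2 months, which overlap (0.10, SE 0.334, adjusted p = 0.842). Prkar1a had 445 and 452 CPM at 24 months, against 568 and 500.4 CPM at 2 months (-0.25, SE 0.317, adjusted p = 0.567), lower without overlap. Crem had 57.3 and 70.6 CPM at 24 months, against 42.3 and 51.2 CPM at 2 months (0.45, SE 0.321, adjusted p = 0.3), higher without overlap. The length offset put Prkaca at -0.18 (adjusted p = 0.735), Prkar1a at 0.02 (0.968) and Crem at 0.48 (0.299). The summed spermatid markers and the summed macrophage markers were higher in both 24-month libraries than in either 2-month library. So were the values of Gnas, Crem and Prkar2a, and those of 35.9% of all tested genes. The part of the markers in the values of these members was not tested.

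**Figure D3:**
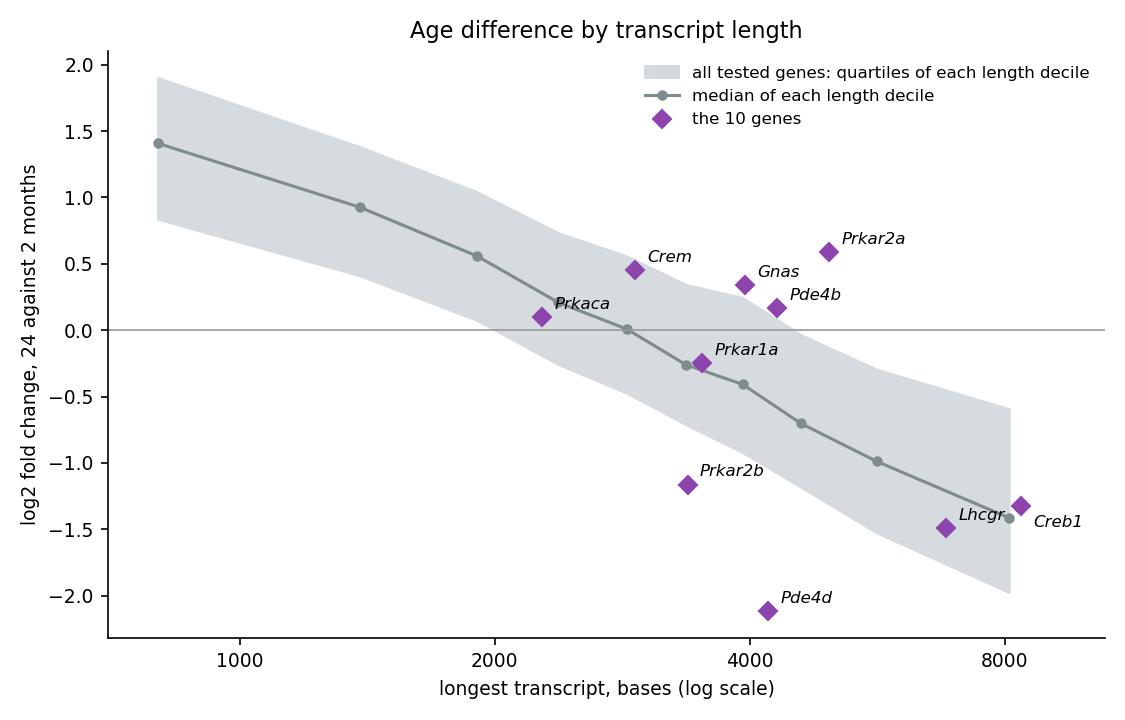
Log2 fold change at 24 against 2 months of the 10 genes (diamonds) by the length of the longest transcript on a log axis, over the median (line) and quartiles (band) of all tested genes in 10 length bins. Lhcgr and Creb1 lie near the median of -1.41 for the longest transcripts. Prkar2b (-1.16) and Pde4d (-2.12) lie below the band at their own lengths, and Prkar2a (0.59), Gnas (0.34) and Pde4b (0.17) lie above it.

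The make-up of the PKA regulatory subunits is a ratio within each library, so that scaling between libraries cancels. The age trend on transcript length does not cancel. The longest transcripts have 4965 bases for Prkar2a, 3513 for Prkar1a and 3378 for Prkar2b. The shares and ratios below carry no length offset unless stated. Prkar1a gave 77.6% ± 0.580 of regulatory subunit reads per kilobase with hymeglusin and 76.9% ± 0.129 with DMSO (SD, n = 3 each), and 82.0% ± 1.17 at 24 months and 81.1% ± 0.700 at 2 months (SD, n = 2 each). It was the major subunit in every library. Prkar2b gave 9.99% ± 0.332 with hymeglusin and 11.8% ± 0.392 with DMSO, and 6.65% ± 1.04 at 24 months and 12.4% ± 0.0756 at 2 months. Prkar2a gave 11.8% ± 0.335 with hymeglusin and 10.6% ± 0.165 with DMSO, and 10.8% ± 0.363 at 24 months and 6.01% ± 0.645 at 2 months. Prkar1b, the type I beta subunit known mainly from brain, gave under 1% in each group's mean.

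The balance of the 2 type II subunits, beta over alpha, did not overlap between the groups of either comparison. Prkar2b per Prkar2a was 0.830, 0.843 and 0.857 with hymeglusin, against 1.18, 1.07 and 1.10 with DMSO. At 24 months it was 0.561 and 0.667, against 2.23 and 1.93 at 2 months. The ratio was under 1 in every hymeglusin and 24-month library and above 1 in every DMSO and 2-month library on this scale per kilobase. By counts with no length, Prkar2b was under Prkar2a with DMSO too, at 9.64% against 15.1% of regulatory subunit counts, and above it at 2 months, at 10.4% against 8.79%, so that the crossing of 1 in MLTC-1 cells rests on the exon lengths used. The log2 difference was -0.40 (SE 0.0428) for hymeglusin minus DMSO and -1.76 (SE 0.162) for 24 minus 2 months, a ratio 3.39 times lower at 24 months. The exact permutation test, two-sided, gave p = 0.1 and 0.333, the smallest that 3 against 3 and 2 against 2 samples allow. Adjusted over the 7 ratios tested these were 0.233 and 0.333. Leaving out each library kept the difference between -0.36 and -0.43 with hymeglusin and between -1.64 and -1.89 with age. With the length offset, the fold change of Prkar2b minus that of Prkar2a was -2.33 with age. Prkar2b per Prkar1a differed by -0.25 with hymeglusin and -0.93 with age, and Prkar2a per Prkar1a by 0.15 and 0.84, each with the smallest p its design allows. Pde4b per Pde4d was 0.650 and 0.758 at 24 months, against 0.109 and 0.184 at 2 months, a log2 difference of 2.31 (SE 0.393, exact permutation p = 0.333).

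**Figure D4:**
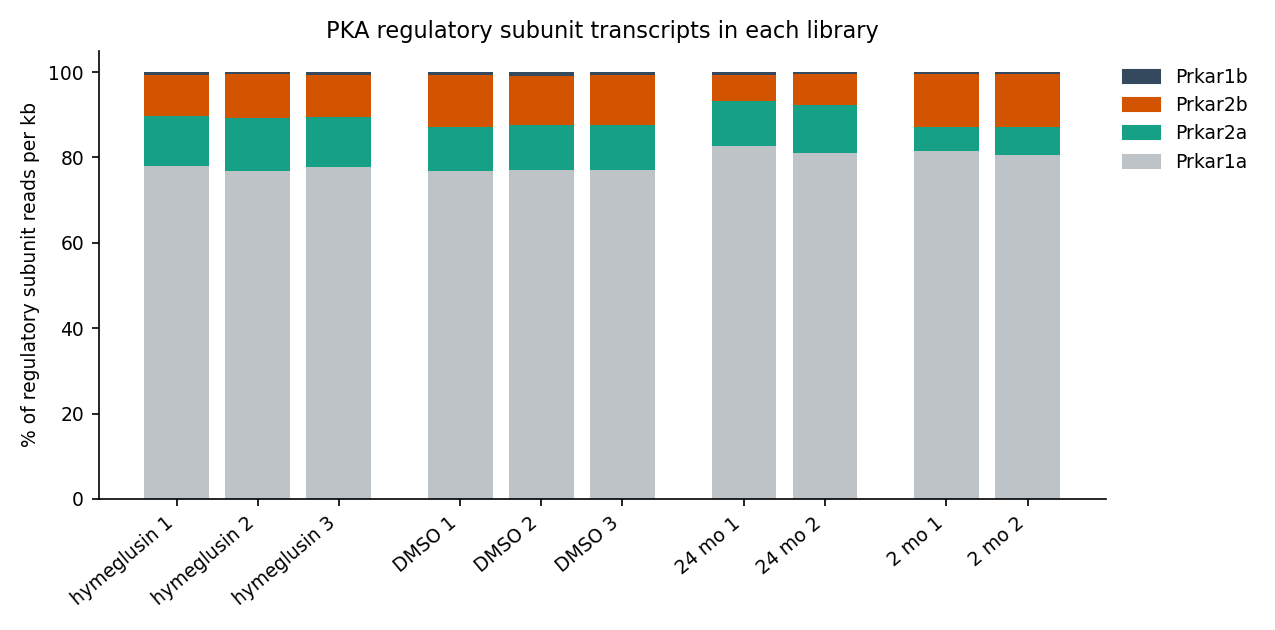
Shares of the regulatory subunit genes of PKA in each library, as percent of their summed reads per kilobase of exon, for hymeglusin, DMSO, 24 months and 2 months. Prkar1a makes up most of every bar, and the Prkar2b part is smaller and the Prkar2a part larger with hymeglusin than with DMSO and at 24 months than at 2 months.

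Other genes of the pathway were counted by lists. In what follows the first value in brackets is the log2 fold change. With hymeglusin, 21 of 54 tested genes rose and 9 fell, where 23.8% of all tested genes rose and 24.5% fell, and several of the lists below lie near these shares. Of the 8 tested early genes known to be induced by cAMP, 6 rose and 0 fell, among them the nuclear receptor Nr4a1, at 86.1 to 89.1 CPM with hymeglusin against 37.4 to 42.2 CPM with DMSO (1.15, SE 0.0597, adjusted p = 1.25e-17), and the phosphatase Dusp1 (0.73, SE 0.0680, adjusted p = 4.54e-11). The list median was 0.81. Some of these genes are also induced by growth factors and stress. Of 9 partners and brakes of CREB, 3 rose, the acetyltransferase Crebbp (0.39, adjusted p = 0.000320) and the coactivator Crtc1 (0.18, adjusted p = 0.00568) among them. Of 6 cyclases and inhibitory G subunits, Adcy7 (0.89, adjusted p = 3e-06) and Gnai2 (0.12, adjusted p = 0.0389) rose and Adcy9 fell (-0.14, adjusted p = 0.0145).

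Of 7 other cAMP phosphodiesterases tested with hymeglusin, 4 rose and 2 fell. Those that fell were the 2 forms of the high-affinity, cAMP-specific Pde8 family known to limit steroid synthesis in Leydig cells. Pde8b was at 58.2 to 64.3 CPM with hymeglusin against 81.0 to 88.3 CPM with DMSO (-0.45, adjusted p = 5.48e-08), and Pde8a at 94.7 to 98.9 CPM with hymeglusin against 123 to 130.2 CPM with DMSO (-0.39, adjusted p = 7.66e-08). Among those that rose were Pde2a (0.95, adjusted p = 0.00606) and Pde11a (1.08, adjusted p = 0.0124), each at most 2.2 CPM in any library. Of the other PKA genes, the catalytic subunit Prkacb (-0.25, adjusted p = 0.000123) and Prkar1b (-0.59, adjusted p = 0.00302) fell, and the kinase inhibitor Pkig rose (0.21, adjusted p = 0.0106). Of 9 anchoring proteins, Akap13 rose (0.37, adjusted p = 1.1e-06) and Akap7 fell (-0.38, adjusted p = 1.15e-05). Of 7 genes of receptor desensitisation, 3 rose, the receptor kinase Grk5 (1.13, adjusted p = 4.48e-05) and Gipc1 (0.32, adjusted p = 8.94e-05) among them, and 2 fell, Grk6 (-0.14, adjusted p = 0.0224) and Cyth2 (-0.12, adjusted p = 0.0464). In the Epac branch, the other cAMP sensor, Rapgef3 rose, at most 0.800 CPM in any library (1.06, adjusted p = 0.0394) and Rap1b fell (-0.20, adjusted p = 0.000962).

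With age, 5 of 73 tested list genes rose and 24 fell, where 13.5% of all tested genes rose and 15.1% fell. With the length offset 9 rose and 7 fell, against 8.97% and 5.65% of all tested genes, so that the balance turned over. Of 11 cyclases and inhibitory G subunits, 6 fell as fitted and 3 with the length offset, with list medians of -1.55 and -0.84. Adcy6 lay between 5.48 and 6.44 CPM at 24 months, against between 51.5 and 62.6 CPM at 2 months (log2 fold change -3.26, SE 0.354, adjusted p = 0.00168), and kept -2.17 (adjusted p = 0.000857) with the offset, while Adcy3 was at -1.81 (adjusted p = 0.0108) and -0.84 (adjusted p = 0.115). Of the 5 other PKA genes, the inhibitor Pkib rose (1.61, adjusted p = 0.0170, and 2.56, adjusted p = 0.000859, with the offset), and Prkacb (-1.50, adjusted p = 0.0216) and the inhibitor Pkia (-1.28, adjusted p = 0.0295) fell, with offset values of -0.96 (0.0520) and -0.99 (0.0461). Of 14 other phosphodiesterases, Pde10a (-2.44, adjusted p = 0.00461) and Pde8a (-1.15, adjusted p = 0.0326) fell and 0 rose. With the offset these stood at -1.06 (0.0487) and -0.79 (0.0921), and 2 others rose. Of 9 genes of desensitisation, Rgs2, which dampens G protein signals, rose, with 142 to 188 CPM at 24 months against 66.1 to 67.2 CPM at 2 months (1.31, adjusted p = 0.0212). The receptor kinase Grk3 (-2.52, adjusted p = 0.00881) and the arrestin Arrb1 (-1.45, adjusted p = 0.0189) fell, and the offset left Grk3 at -1.43 (0.0136) and Arrb1 at -0.22 (0.655).

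For 3 lists most age calls ended with the length offset. Of 9 partners and brakes of CREB, 5 fell as fitted, Crtc1 (-1.93, adjusted p = 0.00939) and Crtc3 (-1.80, adjusted p = 0.0144) among them. The list median was -1.44 as fitted and -0.46 with the offset. With the offset 0 fell and 1 rose, and Crtc1 was at -0.25 (adjusted p = 0.699) and Crtc3 at -1.01 (adjusted p = 0.0620). Of 12 anchoring proteins, 5 fell as fitted and 1 with the offset, Akap11 (-2.52, adjusted p = 0.00888, and -1.13, adjusted p = 0.0263), and Akap9 was at -2.43 (adjusted p = 0.00961) and -0.79 (adjusted p = 0.101). In the Epac branch Rapgef4 was at -1.58 (adjusted p = 0.0320) and -1.13 (adjusted p = 0.0506). Of 9 cAMP-induced early genes 3 rose as fitted and 3 with the offset, among them Junb (1.97, adjusted p = 0.00899, and 1.40, adjusted p = 0.00718) and Nr4a1 (1.25, adjusted p = 0.0312, and 1.11, adjusted p = 0.0330), while Per1 fell as fitted (-0.94, adjusted p = 0.0485) and not with the offset (-0.24, adjusted p = 0.633).

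Over the 10 libraries, the genes whose log2 CPM was most like that of Lhcgr, of 10184 ranked by Pearson correlation, were Hacd3 (r = 0.98), Cul5 (0.97), Alg2 (0.97), Pttg1ip (0.97) and Zbtb8b (0.97). The 10 libraries form 4 groups, so the correlations are a description and carry no p. The levels behind them carry no length offset, so the age trend on transcript length remains in them. Hacd3, a dehydratase of very long fatty acid elongation, was at 286 to 291 CPM with hymeglusin, 369 to 404 CPM with DMSO, 186 to 239 CPM at 24 months and 417 to 443 CPM at 2 months. Of the members, Prkar2b (r = 0.88) and Prkar1a (0.87) ranked highest, at places 91 and 100, and Crem (-0.14), Prkar2a (-0.32) and Gnas (-0.33) had negative correlations.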

How the data were processed

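The authors deposited whole-number read counts for each gene symbol, with no normalization. Per the submitters' processing notes, the tools were HISAT2 2.2.1, fastp 0.23.4, featureCounts 2.0.6 and FastQC 0.12.1, with the mm10 build; their options, strand setting and annotation are not stated in what was used here. Per the labels' protocols, RNA came from an RNeasy kit and libraries from a NEBNext Ultra kit. Sample titles gave the groups and replicate numbers, and the number of value columns without a sample was 0. Chi-square per degree of freedom between libraries of a group was at least 3.44, so none was taken as a resequenced copy and each counted as a sample. This spread cannot tell separate cultures or animals from repeat preparations of the same material.

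The MLTC-1 and the primary libraries were fitted apart in edgeR 4.0.16 (R 4.3.3). Genes had to pass filterByExpr (count 10, total 15), scaling was TMM, and the robust quasi-likelihood F-test was two-sided. Each SE was taken as the absolute log2 fold change divided by the square root of F. The procedure was checked on simulated counts. Exon and transcript lengths are from GENCODE release M21 (GRCm38, the assembly of mm10). The length offset is a loess trend per library (span 0.3) on the longest transcript, known for 98.1% of genes tested with hymeglusin and 97.8% with age. The alternatives comprised DESeq2 1.42.0; limma-voom (limma 3.58.1); scaling by total counts, RLE or the upper quartile; dropping the count filter; a replicate block; the length offset with and without that block; a joint fit of all 10 libraries; and each library left out in turn. Likeness to Lhcgr used log2 CPM with a prior count of 2 and genes with a mean of at least 2 on that scale, without clone names or pseudogenes. The members, lists, settings and named genes were chosen with earlier results of these data known. The named genes are all 10 members, up to 2 genes per list, direction and comparison by adjusted p, and the 5 most like Lhcgr. Limits on counts of 0 include counting error alone, because reads lacking molecular identifiers are not independent molecules.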

Additional observations from a re-analysis of the deposited data

How the results depend on the processing

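Of 268 member results under the alternatives, 219 kept their direction and side of the threshold, 22 lost a call, 16 gained one and 11 changed sign; the causes were not tested. A joint fit of all 10 libraries shared 1 spread between the line and the primary cells. It called 934 genes with hymeglusin (6218 in the separate fit), with 0 members higher and 1 lower (Lhcgr). With age it called 8868 genes (4685 in the separate fit), 4309 higher and 4559 lower. Among the members 2 were then higher and 4 lower. With age, total counts called 1832 genes, with 0 members higher and 2 lower. The length offset called 2394, with 1 member higher and 2 lower. Total counts moved the median log2 fold change of all genes to 0.11 with hymeglusin (4659 higher, 1996 lower) and to -0.21 with age (531 higher, 1301 lower), and upper quartile scaling to 0.17 with age (2626 higher, 1781 lower). Prkar2b was at an adjusted p of 0.0534 with age under total counts.

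Deviations of same-numbered replicates from their group means correlated at 0.0024, -0.0245 and 0.0318 with hymeglusin and at -0.0905 with age. Differently numbered replicates lay between -0.0409 and 0.0368 with hymeglusin. With 2 libraries a group the deviations mirror each other, so the age value cannot decide whether replicates were paired. The replicate block called 6360 genes with hymeglusin and 4774 with age and put Creb1 at an adjusted p of 0.0167 with age. The replicate block with the length offset called 2740 genes with age, with 2 members higher (Prkar2a and Gnas) and 1 lower (Pde4d), Prkar2b being at an adjusted p of 0.0512.

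Leaving out each library gave 5397 to 5964 genes with hymeglusin, with 0 to 1 members higher and 4 to 5 lower, and 841 to 9887 genes with age, with 0 to 1 members higher and 0 to 4 lower. The fewest age calls came without 2-month replicate 1 (841) or 2 (1453) and the most without 24-month replicate 2 (9887). A lone library was then assumed to vary like the other group. The signs that changed belonged to uncalled values. With age, Pde4b was at -0.062 with total counts, -0.03 without 2-month replicate 1 and -0.14 without 24-month replicate 1, with 0.36 as the highest value when 1 library was left out. Prkaca was at -0.13 with total counts, -0.18 with the length offset, -0.20 with the block and offset, -0.03 without 2-month replicate 2 and -0.23 without 24-month replicate 1, with 0.28 as the highest such value. Prkar1a was at 0.024 with the length offset and 0.024 with the block and offset. With hymeglusin, Prkar2a was at 0.018 with total counts. The 7 ratios kept their direction without each library. Using counts with no length leaves these differences as they are by construction, since a fixed length cancels. Depth limits Pde4b and Pde4d most.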
